A study of Mus musculus with 15 samples.

Results

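Striatum and cerebral cortex of mice lacking Slc1a4 were compared by RNA sequencing, with 3 knockout (KO) striatum libraries set against 4 KO cortex libraries. Of the 26595 genes in the table, 16373 were tested because 3 or more of these 7 libraries held a normalized count of 10 or higher. Normalized counts are reads per gene after division, by the authors, by 1 size factor for each library. Foxo6os and Rnase1 entered narrowly, with 10.3 as the third of their 7 values, and Ankdd1b and Cnr2 missed narrowly, with 9.85. Among the genes tested, 153 passed through KO striatum alone, meaning that no KO cortex library reached 10. A further 182 passed through KO cortex alone, with no KO striatum library at 10 or higher. Such genes were low in the other tissue by construction, so they had to differ, and the values of those described here support nothing further. Of the genes given with values, Calcr, Drd3, Gabre, Gbx1, Gbx2, Gdnf, Hcrt, Isl1, Lhx8, Oxt, Pgr15l, Shox2 and Slc18a3 passed through KO striatum alone, and Ovol2, Ntn5 and Krt80 through KO cortex alone. All other genes are said to have passed through both tissues, but some still needed a single tissue to pass. Pmch, Six3, Six3os1, Dgkk, Frem3, Arhgap36, Chat and Avp had too few KO cortex values of 10 or higher. Dkkl1, Glp2r, Tgm3, Myh3 and Mybpc1 had too few in KO striatum. The filter favoured a difference in these genes too.

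Both groups carried the SLC1a4 -/- genotype, so the deletion of the gene of ASCT1, a carrier of serine and other small neutral amino acids, was common to the 2 tissues compared. All mice of the series were C57Bl/6 males aged 5 months, and the labels name no treatment. A further 4 libraries of wild-type (WT) cortex and 4 of WT striatum shared the fit and served to set the KO regional difference beside the WT one. The labels do not say whether the replicates are separate animals or pools, so the p-values reflect spread among these libraries alone, which may be technical.

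The striatum is built mainly of projection neurons that release GABA. They form a direct pathway class, which carries the dopamine receptor Drd1, and an indirect pathway class, which carries Drd2, and a few cholinergic interneurons lie among them. The cortex is built mainly of layered pyramidal neurons that release glutamate, with several classes of GABA interneurons between them. Because whole tissue was sequenced, fewer cells of a type and less RNA per cell cannot be told apart.

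Slc1a4 (chromosome 11, GRCm38) was low in every KO library. It stood at 344, 311 and 158 normalized counts in KO striatum (replicates 2, 3 and 4, the order used throughout) and at 252, 308, 249 and 251 in KO cortex (replicates 1 to 4). In the WT libraries it lay between 1237 and 1797. The regional log2 difference in KO, striatum minus cortex, was -0.04 (SE 0.20, limma adjusted p = 0.896), and the groups overlapped. Which part of the gene was removed is not given in the sources used here.

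Libraries held 23260155 to 24006391 counted reads in KO striatum and 28114119 to 30276815 in KO cortex. KO striatum replicate 4 stood apart from the other libraries of its group. The summed level of 15 choroid plexus markers was 156577 in it, against 17995 and 10007 in replicates 2 and 3 and 8989 to 16697 in KO cortex. The summed level of 23 markers of thalamus, hypothalamus, septum and pallidum was 67899 in it, against 15902 and 21728 in the other KO striatum libraries and 6782 to 7324 in KO cortex. Its direct and indirect pathway markers were the lowest of the group, at 7426 and 11440 against 14631 to 15304 and 24469 to 30801. In KO cortex, replicate 2 stood apart in the astrocyte gene Gfap, at 13720 against 2923 to 4229 in the other libraries. The part of these other tissues in the regional differences was not tested.

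**Figure D1:**
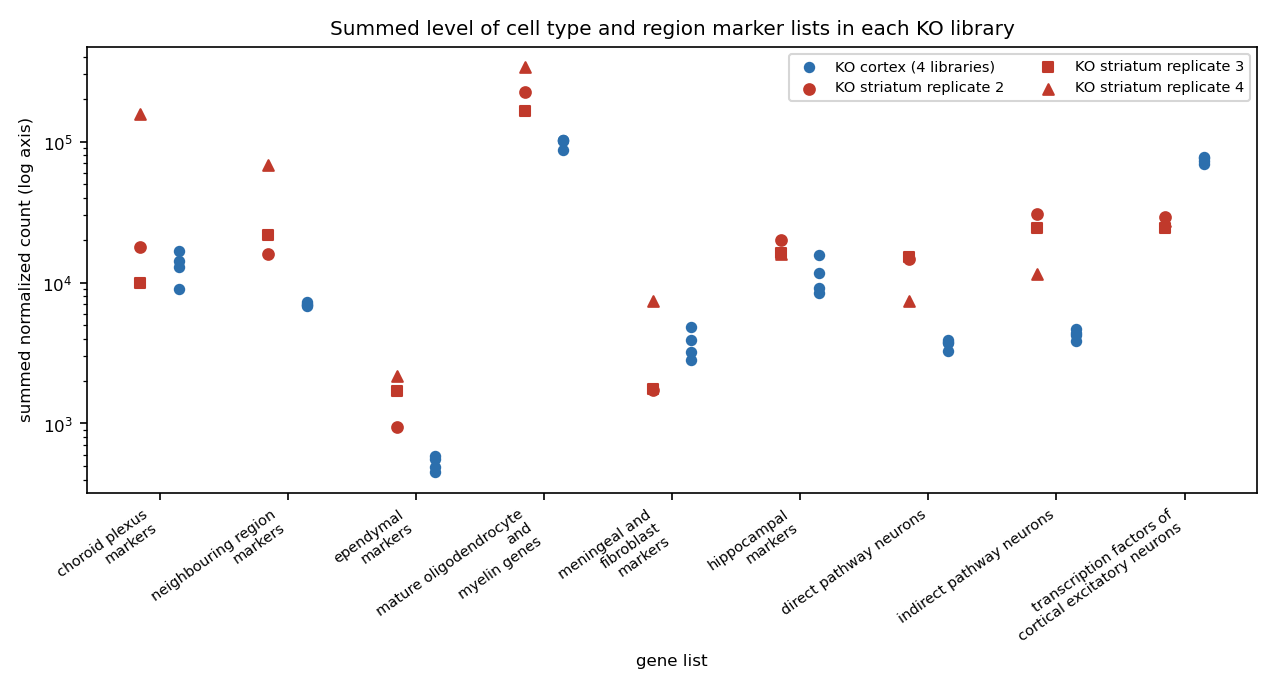
Summed normalized counts of marker lists (log axis) in each of the 7 KO libraries, with KO striatum in red and KO cortex in blue. KO striatum replicate 4 (triangles) has the highest choroid plexus sum, 156577, and the lowest direct pathway sum of its group, 7426, while the 3 KO striatum libraries lie close together for cortical transcription factors.

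The labelled tissues were checked with 2 markers of striatal neurons and 2 of cortical pyramidal neurons. Drd2, the dopamine receptor of indirect pathway neurons, stood at 2164, 2035 and 928 in KO striatum and at 144, 114, 41.1 and 11.2 in KO cortex. Adora2a, the adenosine receptor of the same cells, stood at 3494, 3588 and 1728 against 214, 177, 97.5 and 76.5. Every KO striatum library exceeded every KO cortex library in both genes. Emx1, a transcription factor of cortical progenitors and pyramidal neurons, stood at 40.5, 24 and 34.9 in KO striatum against 463, 457, 542 and 529 in KO cortex. Neurod6, a transcription factor of pyramidal neurons, stood at 544, 160 and 719 against 2056, 2748, 1920 and 2491. All 4 markers followed the labels, and neither cortical marker was at 0 in KO striatum. Their log2 differences were 4.89 for Drd2, 4.42 for Adora2a, -3.90 for Emx1 and -2.52 for Neurod6, with limma adjusted p values of 0.00081, 0.00016, 6.3e-07 and 0.0014.

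**Figure D2:**
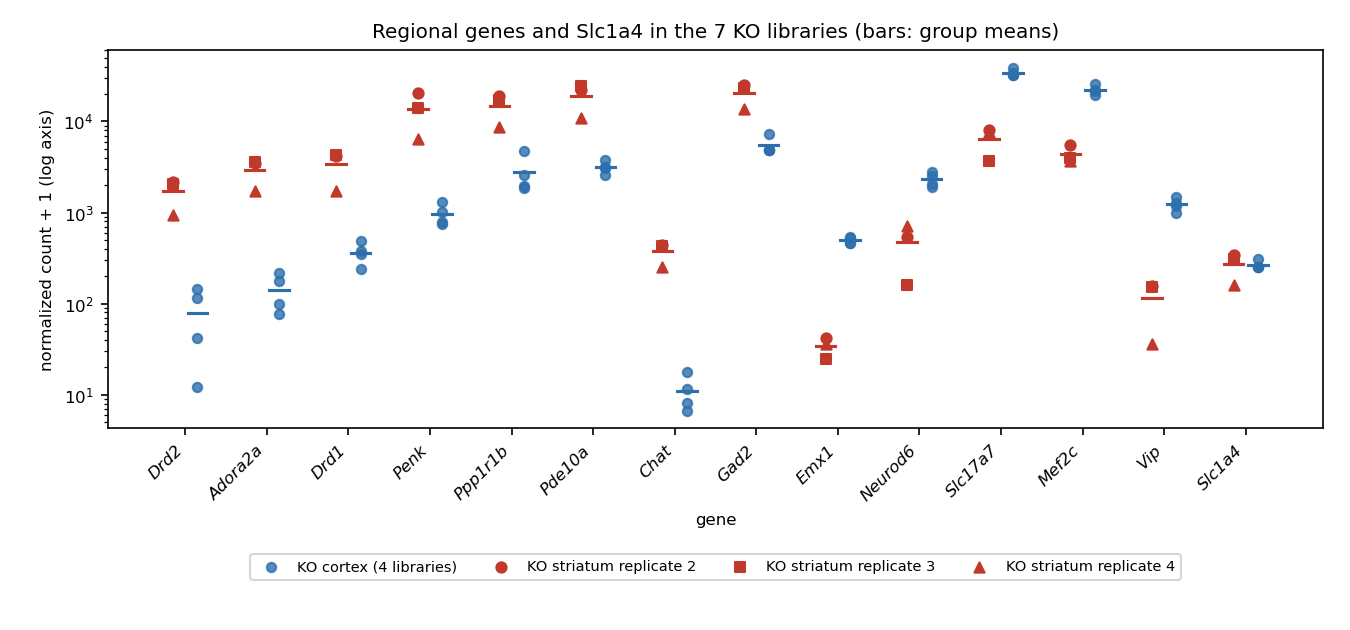
Normalized counts plus 1 (log axis) of 13 regional genes and Slc1a4 in the 3 KO striatum libraries (red) and the 4 KO cortex libraries (blue), with horizontal bars at the group means. The groups are apart for every gene shown but Slc1a4, and KO striatum replicate 4 (triangles) lies lowest of its group for Drd2, Adora2a, Drd1 and Penk.

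Between the regions 6304 genes differed, or 38.5% of those tested. Calls required a Benjamini-Hochberg adjusted limma p below 0.05 across the tested genes, and log2 differences were taken on normalized counts plus 1, which understates the change of low genes. Of the called genes, 3028 (18.5% of all tested) were higher in KO striatum and 3276 (20%) were lower. These shares are the background for the counts of called genes in each list below. Many of these differences were small, with 3157 of the called genes under 1.5-fold. A difference of at least 2-fold was called for 1777 genes (10.9%), 933 higher (5.70%) and 844 lower (5.15%). The largest differences were mostly in the striatal direction: at least 16-fold was reached by 67 higher and 19 lower genes, and at least 32-fold by 34 and 5. Over all genes tested the median log2 difference was -0.00050 and the median absolute difference 0.26. In 6856 genes (41.9%) the values of the 2 groups did not overlap, with KO striatum above in 3289 (20.1%) and KO cortex above in 3567 (21.8%). Without KO striatum replicate 4 the count of called genes was 5678, and 4980 of the 6304 were still called in the same direction.

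**Figure D3:**
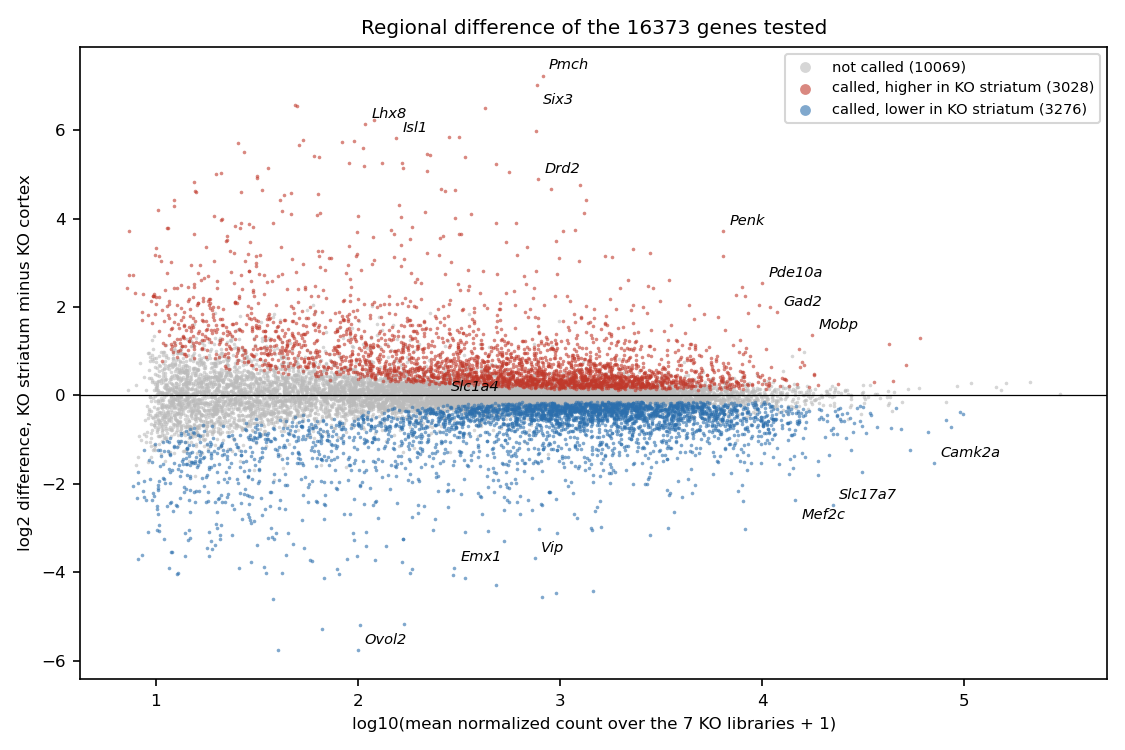
Log2 difference (KO striatum minus KO cortex) of each gene tested against the log10 of its mean normalized count over the 7 KO libraries. The 3028 genes called higher in KO striatum (red) reach larger differences than the 3276 called lower (blue), and Slc1a4 lies at the zero line.

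Of the 15 largest differences toward striatum, several were in homeobox transcription factors. Six3 stood at 2007, 1856 and 1409 in KO striatum and at 37.0, 46.8, 5.37 and 1.87 in KO cortex (log2 difference 7.01, SE 0.99, limma adjusted p = 8.2e-05). Its antisense neighbour Six3os1 had a log2 difference of 5.84, and reads of the pair cannot be told apart without the strand setting. Isl1, a factor of direct pathway and cholinergic neurons, stood at 353, 420 and 280 against 7.92, 9.36, 4.47 and 1.87 (5.82, SE 0.72). Lhx8, a factor of cholinergic neurons, stood at 251, 364 and 128 against 2.64, 4.68, 1.79 and 0.933 (6.13, SE 0.70), and Gbx1, a further homeobox factor, had a log2 difference of 5.67. For these genes the lowest KO striatum value was many times the highest KO cortex value, but Isl1, Lhx8 and Gbx1 were tested only through KO striatum. Six3 and Six3os1 likewise had too few KO cortex values of 10 or higher to pass without KO striatum.

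Others of the 15 were genes best known from the hypothalamus and thalamus. Pmch, the precursor of melanin-concentrating hormone, stood at 1470, 150 and 4090 in KO striatum against 5.28, 12.2, 1.79 and 6.53 in KO cortex (log2 difference 7.23, SE 1.38, limma adjusted p = 0.00091). Hcrt, the orexin precursor, stood at 178, 12.5 and 643 against 0, 1.87, 0 and 0.933. Shox2, a homeobox gene that overlaps Rsrc1 on the opposite strand, stood at 102, 272 and 2582 against 7.04, 7.49, 0 and 5.6 (6.50, SE 0.91). The KO striatum libraries differed widely among themselves, and Pmch, Hcrt and Shox2 were all highest in replicate 4. Hcrt, Shox2 and Calcr were tested only through KO striatum. Pmch also had too few KO cortex values of 10 or higher to pass without KO striatum. Calcr, the calcitonin receptor, and Dlk1, a secreted or membrane-bound relative of Notch ligands, were instead highest in replicate 3, at 421 and 3113 against 38.1 to 115 and 869 to 1231 in the other KO striatum libraries. Their KO cortex values reached at most 1.87 and 31.8. The further genes of this top group, Dgkk, Pgr15l, Gabre, Arhgap36 and Frem3, had log2 differences of 5.45 to 5.85.

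Ovol2 led the 15 largest differences toward cortex, which also held the interneuron gene Vip. Ovol2, a zinc finger transcription factor of epithelia, stood at 6.57, 3.13 and 0 in KO striatum and at 224, 128, 173 and 163 in KO cortex (log2 difference -5.75, SE 0.50), and was tested only through KO cortex. Vip, the neuropeptide of a class of cortical interneurons, stood at 157, 152 and 34.9 against 1270, 992, 1465 and 1183 (-3.67, SE 0.39). No KO striatum library reached the KO cortex range in either gene. The group also held Ntn5, Igfn1, Serpinb8, Krt80, Dkkl1, Psrc1, Adam33, Glp2r, Tgm3, Myh3 and Mybpc1, with log2 differences from -5.17 to -3.69. Ntn5 overlaps Sec1 and Glp2r overlaps Gas7, both on the opposite strand.

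Among the most abundant genes at least 2-fold apart were myelin, GABA and cAMP genes on the striatal side and kinase and glutamate genes on the cortical side. Mbp, a main protein of myelin, stood at 61997, 44386 and 81829 against 27933, 30649, 22595 and 27303 (log2 difference 1.17, SE 0.24), and Mobp, a further myelin protein, had a difference of 1.36. Gad1 and Gad2, the enzymes that make GABA, had differences of 1.04 and 1.88, and Adcy5, the main striatal adenylyl cyclase, one of 2.01. Camk2a, a calcium-dependent kinase of excitatory synapses, stood at 41008, 33155 and 28567 against 100770, 84080, 95088 and 111830 (-1.52, SE 0.15). Its inhibitor Camk2n1 (-1.23), the cyclase Adcy1 (-1.73) and the vesicular glutamate transporter Slc17a7 (-2.48) were lower in KO striatum as well. A 95% interval within -0.2 to 0.2 was found for 872 genes. The most abundant were the chaperone Hsp90ab1 (36742, 35968 and 39509 against 34561, 37442, 37533 and 37447), the elongation factor Eef2, the neurotrophin receptor Ntrk2 and the glycolytic enzyme Eno2, with log2 differences of 0.03, -0.02, -0.01 and 0.03.

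Direct pathway markers were higher in KO striatum for 7 of 9 genes tested, with a median log2 difference of 2.07 against -0.00050 over all genes tested. Of the 9, 1 passed the filter through KO striatum alone, and 6 of the other 8 were called higher with a median of 1.87. Drd1 stood at 4150, 4314 and 1714 in KO striatum and at 378, 484, 348 and 240 in KO cortex (log2 difference 3.15, SE 0.45, limma adjusted p = 0.00010). Tac1, the precursor of substance P, had a difference of 3.04, Pdyn, the dynorphin precursor, one of 1.67, and Slc35d3, a nucleotide sugar carrier, one of 4.64. Ebf1, a transcription factor of these neurons, and Sfxn1, a mitochondrial serine carrier, were higher by 2.07 and 0.50. Eya1 was lower (-0.77), and the muscarinic receptor Chrm4 stood at 714, 657 and 277 against 523, 456, 573 and 482, so that only replicate 4 lay below the KO cortex range.

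Indirect pathway markers were higher for 5 of 6 genes tested, with a median of 3.68. Penk, the enkephalin precursor, stood at 20707, 13996 and 6468 in KO striatum and at 1011, 1313, 785 and 746 in KO cortex (log2 difference 3.71, SE 0.45, limma adjusted p = 2.1e-05). Gpr6, an orphan receptor coupled to cAMP, stood at 729, 913 and 359 against 75.7, 51.5, 50.1 and 28.9 (3.64, SE 0.47). Replicate 4 was the lowest KO striatum library in each of these genes, and still lay above every KO cortex library. Sp9, a factor needed for indirect pathway neurons, had a difference of 1.79 and overlaps Cir1 on the opposite strand. Grik3, a kainate receptor, stood at 3159, 3494 and 1719 against 2627 to 3153 and was not called.

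Of 37 genes of dopamine and cAMP signalling, 18 were called higher and 6 lower in KO striatum (median 0.56), with the receptors and G protein subunits at the top. Among the receptors, Drd3 stood at 23, 63.6 and 14.8 against 0.880, 0, 0 and 0. Drd4 and Drd5 were not called, at 3.13 to 10.9 and 107 to 113 in KO striatum against 4.47 to 21.5 and 43.8 to 130 in KO cortex, and Drd5 was called at 0.86 without KO cortex replicate 4. Gnal, the alpha subunit that couples Drd1 and Adora2a to cyclase, was higher by 1.57, and Gng7, a gamma subunit that pairs with it, by 2.26. Rgs9, which shortens G protein signals in these neurons, was higher by 3.32, Rasd2 by 1.85, Rasgrp2 by 2.03 and Rgs8 by 1.02. The general alpha subunits Gnao1 and Gnas stood at 16001 to 18592 and 24161 to 31634 against 17232 to 17965 and 26856 to 28769, and neither was called. Over the 35 members that passed the filter through both tissues, 16 were called higher and 6 lower, and the median was 0.28. Over all 37 it was 0.29 without KO striatum replicate 3 and 0.35 without KO cortex replicate 3.

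Adenylyl cyclases split by subtype. Adcy5 stood at 23173, 23071 and 11664 in KO striatum against 5028, 5036, 4035 and 4293 in KO cortex (log2 difference 2.01, SE 0.25, limma adjusted p = 2.5e-05). In the opposite direction, the calcium-stimulated Adcy1 stood at 12661, 8074 and 21969 against 42530, 38212, 45005 and 48489 (-1.73, SE 0.23), and Adcy2 and Adcy9 had differences of -0.93 and -0.85. The groups did not overlap in any of these 4 cyclases. Of the subunits of protein kinase A, Prkar1b was lower (-0.74), and its relative Prkar1a was not called (0.06). Prkar2b was called at 0.67, and lost the call without KO cortex replicate 2 (0.60) and without KO striatum replicate 2 (0.58) or 3 (0.43). Ppp1r1b, the phosphatase inhibitor that relays dopamine signals, stood at 18789, 17390 and 8580 against 2580, 4682, 1948 and 1853 (2.46, SE 0.40, limma adjusted p = 0.00027). The striatal tyrosine phosphatase Ptpn5 was higher by 0.68, a call that was lost without KO striatum replicate 3 (0.56). Arpp19 and Arpp21, phosphoproteins of the same pathway, were not called at -0.31 and 0.56. Arpp21 was called at 0.95 without KO striatum replicate 4.

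Phosphodiesterases, which break down cyclic nucleotides, were called higher for 8 and lower for 4 of 17 genes tested. Pde10a, the enzyme most typical of striatal projection neurons, stood at 22386, 24310 and 10775 in KO striatum and at 3746, 3149, 3094 and 2570 in KO cortex (log2 difference 2.53, SE 0.32, limma adjusted p = 3.3e-05). Pde1c (2.37), Pde1b (1.86), Pde3a (1.69), Pde7b (1.48) and Pde8a (0.84) were also higher. Pde1a, a close relative of Pde1b and Pde1c, stood at 3932, 2619 and 1245 against 7625, 9336, 8337 and 7082 (-1.78, SE 0.31), and Pde5a had a difference of -1.46. Members of the calmodulin-dependent Pde1 family thus lay on opposite sides, with no overlap of the groups in any of the 3. Pde2a, Pde8b and Pde11a were not called (-0.24, -0.26 and 0.26).

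Transcription factors of striatal projection neurons were called higher for 18 of 20 genes tested and lower for none, with a median of 1.81. Of the 20, 1 passed the filter through KO striatum alone, and 17 of the other 19 were called higher with a median of 1.79. Zfhx3 stood at 1359, 2131 and 2531 in KO striatum and at 229, 247, 191 and 239 in KO cortex (log2 difference 3.10, SE 0.21, limma adjusted p = 1.2e-07). Rxrg, a retinoid receptor, had a difference of 3.91, Rarb, which overlaps Top2b on the opposite strand, one of 2.43, and Dlx6, of the Dlx homeobox family, one of 2.39. Meis1 was higher by 2.1. Unlike Rxrg, which was lowest in replicate 4 (437 against 1475 and 1199), Zfhx3 was highest there. The 2 genes not called were Foxp1, at 5454, 6027 and 3298 against 3080 to 3885, and Dlx1, which overlaps Dlx1as on the opposite strand, at 613, 995 and 393 against 520 to 588. Both were called without KO striatum replicate 4, at 0.70 and 0.48.

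Transcription factors of cortical excitatory neurons mirrored this, with 19 of 24 genes called lower in KO striatum, 0 higher and a median of -1.37. Mef2c, an activity-dependent factor, stood at 5464, 3950 and 3687 in KO striatum against 21996, 19552, 25563 and 21743 in KO cortex (log2 difference -2.36, SE 0.12, limma adjusted p = 1.2e-08). Tbr1, of deep-layer neurons, stood at 638, 682 and 286 against 4356, 3919, 4814 and 4768 (-3.15, SE 0.38). Fezf2, of subcortical projection neurons, stood at 139, 67.8 and 63.5 against 953, 671, 1018 and 759 (-3.30, SE 0.26). In these 3 genes every KO striatum value was far below the lowest KO cortex value. Neurod2 stood at 420, 137 and 369 against 1824, 2145, 1690 and 1916 (-2.76), and Bhlhe22 had a difference of -2.17. In Neurod2, Neurod6 and Bhlhe22 replicate 3 was the lowest of the KO striatum libraries. Etv1, Pou3f1 and Tle4 were not called, with differences of -0.07, -0.16 and 0.24, and Tle4 was called higher at 0.41 without KO striatum replicate 4.

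**Figure D4:**
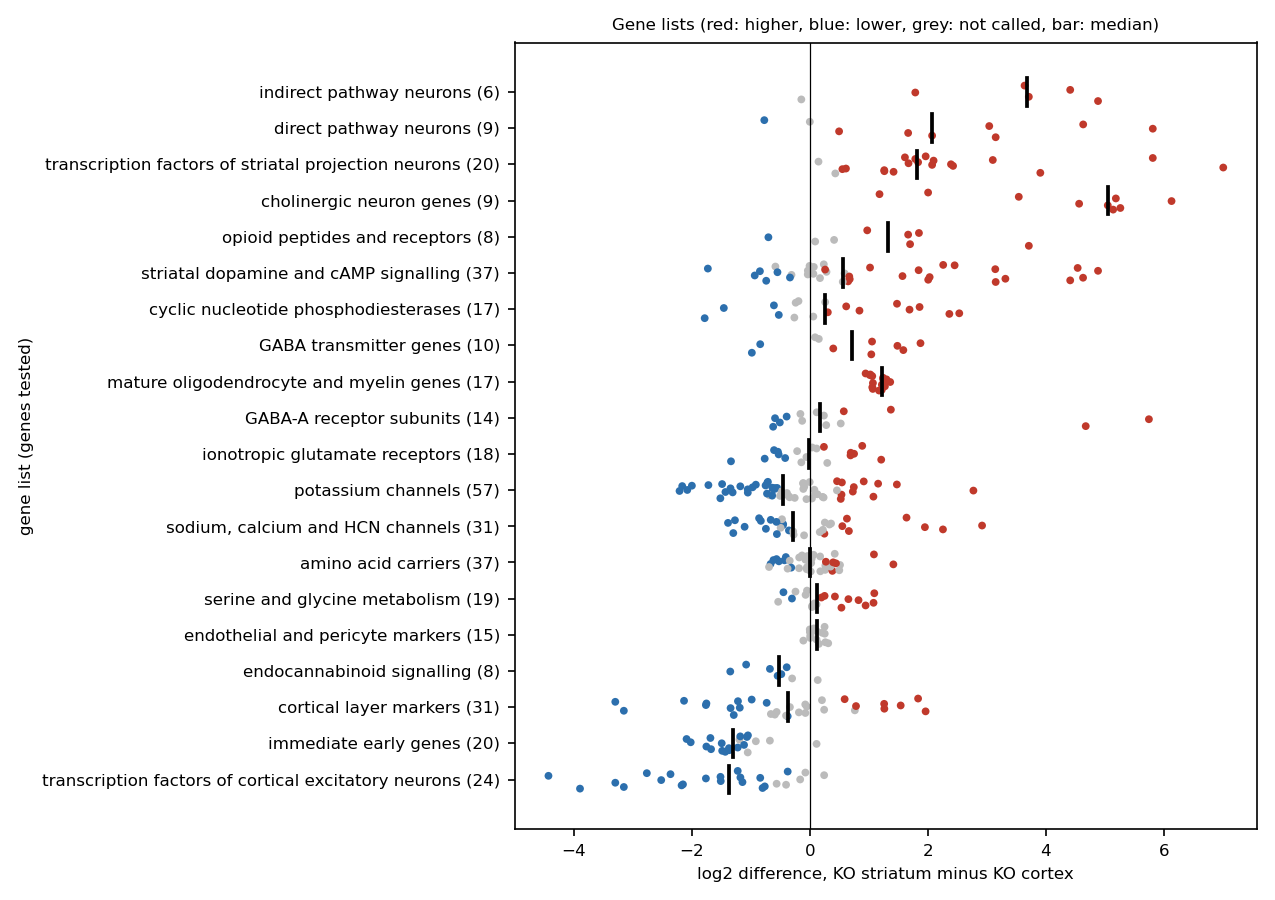
Log2 difference (KO striatum minus KO cortex) of each tested member of 20 gene lists, red where called higher, blue where called lower and grey where not called, with a black bar at the median. The cholinergic genes have the highest median, 5.05 (4 of the 9 passed the filter through KO striatum alone), and the cortical transcription factors the lowest, -1.37.

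Markers of cortical layers went in both directions. Of 31 genes tested, 12 were called lower and 7 higher in KO striatum (median -0.37). In the upper layer group, Cux2 had a difference of -1.76, Lamp5 one of -2.13 and Rasgrf2 one of -1.19, while Calb1 and Cdh13 were higher by 0.59 and 0.78. In the layer 5 group, Pcp4, a calmodulin-binding peptide, stood at 2377, 2412 and 5229 against 844, 663, 832 and 863 (1.96, SE 0.28, limma adjusted p = 7.8e-05), and Bcl11b, which striatal neurons also use, was higher by 1.26. In the layer 6 group, Foxp2 stood at 1854, 2160 and 1965 against 581, 521, 596 and 531 (1.84, SE 0.20) and Syt6 was higher by 1.54, whereas Cplx3 (-1.29) and Sla (-0.99) were lower.

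Of 12 glutamate genes 2 were called higher and 5 lower in KO striatum, and of 10 GABA genes 6 higher and 2 lower. Slc17a7, which loads glutamate into vesicles of cortical neurons, stood at 8072, 3690 and 7651 in KO striatum against 33561, 38962, 32269 and 31947 in KO cortex (log2 difference -2.48, SE 0.32, limma adjusted p = 4.0e-05). Slc30a3, the zinc transporter of the same vesicles, stood at 449, 255 and 192 against 2612, 2130, 2366 and 2110 (-3.03, SE 0.36). The related Slc17a6, used by thalamic and other subcortical neurons, stood at 1650, 2725 and 7890 against 687, 1034, 852 and 891 (1.94, SE 0.43). Slc17a8, found in cholinergic interneurons, was higher by 1.30. Slc17a6 was highest in replicate 4. The enzyme Gls2, which overlaps Spryd4 on the opposite strand, was lower (-0.67), and Got1, Got2 and Glul were not called (0.05, 0.01 and -0.16). On the GABA side, Gad2 stood at 24782, 22990 and 13511 against 4874, 7241, 4852 and 4879 (1.88, SE 0.19, limma adjusted p = 5.0e-06). The vesicular carrier Slc32a1 (1.59), the astrocytic uptake carrier Slc6a11 (1.49) and the breakdown enzymes Abat (1.06) and Aldh5a1 (0.40) were higher. Gabbr1 was not called (0.09). The GABA genes called lower, Gabbr2 (-0.84) and Slc6a13 (-0.98), lost the call without KO striatum replicate 2 (-0.64 and -0.68) or 3 (-0.65 and -0.88), and Slc6a13 also without KO cortex replicate 2 (-0.89) or 3 (-0.91).

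Interneuron markers went in both directions, with 8 of 21 called higher and 6 lower in KO striatum. Vip and Cck, peptides of cortical interneuron classes, had differences of -3.67 and -2.21. Cck, which many pyramidal neurons also make, stood at 1306, 529 and 1980 against 5416, 5023, 4918 and 5223. Nkx2-1, a factor that striatal interneurons keep and cortical ones lose, stood at 244, 275 and 126 against 10.6, 15.9, 8.05 and 12.1 (4.05, SE 0.35, limma adjusted p = 7.8e-07). Th, the first enzyme of dopamine synthesis, was higher by 3.05, Calb2 by 2.51 and Chodl, a marker of a class of Nos1 cells, by 2.41. Markers of the broad classes were not called: Pvalb stood at 1398, 702 and 2248 against 1017 to 1269, Sst at 3782, 2534 and 1447 against 2558 to 2970, and Lhx6 at 672, 847 and 217 against 456 to 505. These depended on single libraries: Pvalb was called at 0.69 without KO striatum replicate 3 and Sst at -0.54 without replicate 2. Lhx6 was called at 0.65 without KO striatum replicate 4, and then 3 rather than 6 genes of the list were called lower.

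Cholinergic neuron genes were higher in KO striatum for 9 of 9 tested, with a median of 5.05. Of the 9, 4 had passed the filter through KO striatum alone, and the other 5 were all called higher with a median of 3.54. Chat, which makes acetylcholine, stood at 436, 431 and 252 in KO striatum against 10.6, 16.8, 7.16 and 5.6 in KO cortex (log2 difference 5.14, SE 0.44, limma adjusted p = 7.6e-07). Slc5a7, the choline uptake carrier, stood at 1399, 1552 and 790 against 44.9, 55.2, 24.2 and 25.2 (5.05, SE 0.38), and Slc18a3, the vesicular carrier whose gene lies within Chat on the same strand, had a difference of 5.19. Ngfr, a receptor for nerve growth factor, was higher by 3.54, and the breakdown enzyme Ache by 1.18. The groups were apart in all 9 genes, but the filter fixed this for the 4 that passed through KO striatum alone. The filter did not fix it in the other 5, but favoured it in Chat, which could not have passed without KO striatum. Over all genes tested, 20.1% had striatum above. Zic4 and Gbx2, which thalamic and septal cells also express and which overlap Zic1 and D130058E05Rik on the opposite strand, were lowest in replicate 2 (113 and 16.4 against 433 to 502 and 118 to 291 in the other KO striatum libraries), while Chat, Slc5a7 and Lhx8 were lowest in replicate 4.

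Among acetylcholine receptors, the muscarinic subtypes Chrm1 and Chrm3 were lower in KO striatum. Chrm1 stood at 2958, 2368 and 1392 in KO striatum against 5373, 4652, 5329 and 5326 in KO cortex (log2 difference -1.27, SE 0.20, limma adjusted p = 0.00019), and Chrm3 at 485, 584 and 725 against 2042, 1755, 2288 and 2246 (-1.81, SE 0.13). Chrm2, a receptor of cholinergic terminals, was higher by 0.48 and Chrm5 by 3.0. Among nicotinic subunits, Chrna5 was lower (-2.38), Chrna3 was higher (2.97), and Chrna7 and Chrna4 were not called (0.03 and 0.15). Chrna3 stood at 37.2, 67.8 and 220, again highest in replicate 4. Of the 14 genes tested 5 were called higher and 4 lower, and without KO striatum replicate 4 the count higher was 3.

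Opioid genes were mostly striatal, with 5 of 8 called higher and 1 lower. Besides Penk and Pdyn, the peptide precursor Pnoc was higher by 0.97. The receptors Oprm1 and Oprk1 stood at 141, 229 and 96.3 against 37.9, 43.0, 38.5 and 40.1 and at 945, 1229 and 390 against 215, 281, 167 and 305, with differences of 1.85 and 1.70. Oprm1 overlaps Ipcef1 on the opposite strand. Oprd1 had a difference of -0.70, or -0.37 without KO striatum replicate 4. Endocannabinoid enzymes lay on the other side, with 6 of 8 genes called lower and 0 higher (median -0.51). Faah, which breaks down anandamide, stood at 943, 771 and 1510 against 2623, 2445, 2763 and 2691 (-1.35, SE 0.18, limma adjusted p = 6.5e-05). Mgll, which breaks down the other main endocannabinoid, had a difference of -1.08, and the synthesis enzyme Dagla one of -0.68. Their receptor Cnr1 stood at 7099, 5849 and 3427 against 4222 to 5411 and was not called.

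Of 12 serotonin receptor genes 4 were called higher and 4 lower. Htr2c stood at 2639, 3257 and 3598 in KO striatum against 731, 1031, 544 and 542 in KO cortex (log2 difference 2.19, SE 0.19, limma adjusted p = 9.4e-07). Htr1b (2.05), which overlaps D430036J16Rik on the opposite strand, Htr1d (3.69) and Htr4 (1.78) were also higher. Htr5a stood at 358, 338 and 311 against 657, 685, 674 and 692 (-1.01, SE 0.12), and Htr3a and Htr2a had differences of -1.62 and -0.91. Without KO striatum replicate 4 those of Htr3a and Htr2a were -1.05 and -0.57. Of 11 neurotrophin and related genes 5 were called higher and 3 lower. Of the 11, 2 passed the filter through KO striatum alone, Gdnf among them, and the other 9 gave 3 calls higher and 3 lower. Gdnf stood at 41.6, 72.0 and 38.1 against 6.16, 2.81, 4.47 and 0 (3.83, SE 0.82), and its receptor parts Ret and Gfra1 were higher by 2.74 and 1.01. Bdnf, which cortical terminals supply to the striatum, stood at 463, 291 and 368 against 969, 1173, 988 and 1028 (-1.49, SE 0.44, limma adjusted p = 0.014), and lost the call without KO striatum replicate 3 (-1.32). Gfra2 was lower (-1.70).

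Ionotropic glutamate receptors were called higher for 6 and lower for 6 of 18 genes, with a median of -0.01. Of the 17 that passed the filter through both tissues, 5 were called higher and 6 lower. The NMDA subunit Grin2a stood at 4477, 3741 and 5452 in KO striatum against 10733, 11424, 11181 and 12190 in KO cortex (log2 difference -1.34, SE 0.10, limma adjusted p = 2.0e-07). Grin2b (-0.61) and the obligatory Grin1 (-0.53) were also lower, and Grin2d (0.89) and Grin3a (0.69) were higher. The AMPA subunit Gria3 was lower (-0.76), Gria4 was not called (0.04), and Gria1 stood at 14597, 13487 and 9749 against 8726 to 11907, called at 0.47 without KO striatum replicate 4. The kainate receptor Grik2 was higher (0.69). Of the metabotropic receptors, Grm4 was called higher (1.23), and calls lower were made for Grm2, at 311, 248 and 551 against 1176, 963, 1353 and 1099 (-1.70, SE 0.35), and Grm8 (-0.60).

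The GABA-A subunits with the largest differences were Gabre and Gabrq. Gabre stood at 193, 373 and 84.7 in KO striatum against 5.28, 3.74, 3.58 and 0 in KO cortex (log2 difference 5.75, SE 0.82) and was tested only through KO striatum. Gabrq stood at 382, 1104 and 245 against 21.1, 27.1, 15.2 and 10.3 (4.68, SE 0.70). Both were highest in replicate 3. Gabrg1 was higher by 1.37. Of the 14 subunits tested 4 were called higher and 4 lower, with 2 lower when KO striatum replicate 2 or 4, or KO cortex replicate 4, was left out. Of the 13 that passed the filter through both tissues, 3 were called higher and 4 lower.

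Potassium channel genes were lower more often than higher, with 25 of 57 called lower and 11 higher in KO striatum (median -0.45, or -0.27 without KO striatum replicate 4). Kcnh7, an ether-a-go-go related channel, stood at 1337, 1757 and 1320 in KO striatum against 6798, 5832, 7021 and 7422 in KO cortex (log2 difference -2.21, SE 0.12, limma adjusted p = 1.3e-08). Kcns1 (-2.08), Kcnv1 (-2.0), Kcnh5 (-1.49) and Kcnh3 (-1.34) were lower too. Kcnh7 and Kcnh3 overlap Gca and Mcrs1 on the opposite strand, and Kcns1 and Kcnv1 are modifiers that form no channel alone. The G protein-gated Kcnj6, Kcnj9 and Kcnj3 had differences of -1.72, -1.43 and -1.05. In the striatal direction stood Kcna5 (2.77) and Kcna4 (1.16), the small-conductance Kcnn3 (1.48) and the auxiliary Kcnab1 (1.08). Sodium, calcium and HCN channels were called lower for 13 and higher for 8 of 31. Scn4b, a sodium channel beta subunit, stood at 16856, 17539 and 10724 against 3266, 2794, 3098 and 3146 (2.26, SE 0.30, limma adjusted p = 4.5e-05). The calcium channel parts Cacng4 (1.95) and Cacna2d2 (1.64) were higher, and Cacnb3 (-1.30), Cacna1a (-0.86) and Cacna2d1 (-0.74) lower. The pacemaker channel Hcn4 was higher (2.92).

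Of 37 amino acid carriers, the wider group to which ASCT1 belongs, 6 were called higher and 7 lower (median 0.00), near the background of 38.5% of all genes. In the family of Slc1a4, Slc1a5, Slc1a1, Slc1a3 and Slc1a6 were not called, with differences of 0.02, 0.02, -0.05 and 0.26. Slc1a2, the astrocytic glutamate carrier, was called at -0.43, and lost the call without KO striatum replicate 3 (-0.40) or 4 (-0.32) or KO cortex replicate 4 (-0.40). The glycine carrier Slc6a9 stood at 2619, 1967 and 3659 in KO striatum against 973, 1087, 940 and 990 in KO cortex (log2 difference 1.42, SE 0.17, limma adjusted p = 1.7e-05), and overlaps B4galt2 on the opposite strand. Slc7a8, a carrier of neutral amino acids, had a difference of -0.67, Slc36a1 one of -0.56 and the synaptic vesicle carrier Slc6a17 one of -0.62. Slc7a10, a carrier of serine that overlaps Lrp3 on the opposite strand, stood at 867, 761 and 1145 against 640 to 742 and was called at 0.38, but not without KO striatum replicate 4 (0.22) or KO cortex replicate 1 (0.38) or 3 (0.34).

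Enzymes of serine and glycine metabolism were called higher for 9 and lower for 2 of 19, or lower for 1 without KO striatum replicate 2 or KO cortex replicate 4. The first steps of serine synthesis, Phgdh and Psat1, stood at 1370, 1280 and 1893 against 1125, 867, 1024 and 1119 and at 4254, 3085 and 4600 against 2955, 2950, 2775 and 3004 (log2 differences 0.54 and 0.43, limma adjusted p = 0.0028 and 0.0060). Psph, the last step, which overlaps Cct6a on the opposite strand, was not called (0.08). Srr, the racemase that makes the neuromodulator D-serine, stood at 2094, 2279 and 1630 against 2744, 2597, 2729 and 2738 (-0.45, SE 0.10). Synthesis enzymes and the racemase thus differed in opposite directions, and Srr overlaps Smg6 and Tsr1 on the opposite strand. Gatm and Gamt, which make creatine from glycine, were higher by 1.09 and 0.83, and the mitochondrial folate enzyme Mthfd2 by 1.08. Amt, of the glycine cleavage system, and Cbs were not called (-0.05 and 0.04).

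Immediate early genes, which neurons switch on briefly after activity, were called lower in KO striatum for 15 of 20 and higher for 0 (median -1.29). Arc, an effector at synapses, stood at 1443, 1792 and 1670 in KO striatum against 7028, 3830, 8005 and 8828 in KO cortex (log2 difference -2.02, SE 0.34, limma adjusted p = 0.00033). Nr4a1, a nuclear receptor, stood at 666, 1210 and 848 against 3379, 1443, 3686 and 3588 (-1.69, SE 0.35), and Egr3 at 745, 1000 and 482 against 2908, 1481, 2974 and 2581 (-1.75, SE 0.31). KO cortex replicate 2 was the lowest cortex library in each of them and still lay above the KO striatum range. Ptgs2 (-2.09), Egr1 (-1.49) and Ier2 (-1.43) were lower as well. Npas4 was called at -1.67, but not without KO cortex replicate 3 (-1.53) or 4 (-1.54) or KO striatum replicate 2 (-1.56) or 4 (-1.46). Jun stood at 1486, 965 and 1471 against 1034 to 1499, and Fos at 272, 636 and 359 against 841, 509, 1039 and 1026. Neither was called, and Fos was called at -1.39 without KO striatum replicate 3. The summed level of the list was 31601 in KO cortex replicate 2, 49316 to 52124 in the other KO cortex libraries and 16036 to 20265 in KO striatum.

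The cAMP response element is the site through which cAMP and calcium signals reach many genes of this kind. Its letters TGACGTCA, and the variant TGACGCA, were searched on both strands of the 250 bases before each start in the RefSeq promoter table (GRCm38.p6), and neither set of letters contains the other. Of 32851 promoters of 27025 genes, 1.55% held TGACGTCA and 1.75% TGACGCA. The table matched 15 of the 20 immediate early genes, 8 of the 9 direct pathway genes and 4 of the 6 indirect pathway genes, and among them TGACGTCA was found for Dusp1 and Gpr6 and TGACGCA for Fosb, Nr4a1, Isl1 and Tac1. A match describes the letters only. The promoters of Gpr6, called higher in KO striatum, and of Nr4a1, called lower, are shown to set a full site beside a repeated variant. They lie at chr10:41072291-41072540 on the minus strand and chr15:101266596-101266845 on the plus strand, and neither stretch meets an exon of its gene in GENCODE M21. Capitals mark the motif, which in Nr4a1 reads TGCGTCA because all 4 copies are on the other strand.
Gpr6: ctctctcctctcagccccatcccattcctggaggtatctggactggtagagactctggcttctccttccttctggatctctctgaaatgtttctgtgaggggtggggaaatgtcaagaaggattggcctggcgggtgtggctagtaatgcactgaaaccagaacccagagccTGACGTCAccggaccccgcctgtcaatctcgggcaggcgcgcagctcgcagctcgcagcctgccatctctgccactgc
Nr4a1: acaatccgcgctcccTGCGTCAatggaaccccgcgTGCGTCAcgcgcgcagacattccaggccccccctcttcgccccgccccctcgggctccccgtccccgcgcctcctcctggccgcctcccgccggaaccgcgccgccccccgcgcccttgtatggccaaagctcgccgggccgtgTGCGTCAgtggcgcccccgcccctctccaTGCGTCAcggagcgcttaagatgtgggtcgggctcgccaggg

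All 17 genes of mature oligodendrocytes and myelin were higher in KO striatum, with log2 differences of 0.95 to 1.36 and a median of 1.22. Mog stood at 1877, 1591 and 3468 in KO striatum against 955, 759, 894 and 1017 in KO cortex (log2 difference 1.27, SE 0.24, limma adjusted p = 0.00091). Replicate 4 was the highest library for the summed myelin level (337165 against 223779 and 164845), and without it the median was 0.87 with 17 of 17 still called. Of 11 genes of the oligodendrocyte lineage at earlier stages 8 were higher, with Lhfpl3 at 1.66 and Olig1 at 0.81. Of 14 astrocyte markers 3 were called higher and 2 lower, near the 38.5% of all genes called, the latter being 0 without KO striatum replicate 3 or KO cortex replicate 4 and 1 without KO striatum replicate 2 or 4. Agt stood at 1919, 1953 and 2673 against 132, 211, 154 and 160 (3.73, SE 0.26, limma adjusted p = 1.3e-07) and Slc4a4 was higher by 0.93. Gfap, Aldoc and Slc1a3 were not called (0.30, -0.07 and -0.05). Of 15 microglial genes 5 were higher and 1 lower, again near 38.5%, all under 1.5-fold, with Ctss at 0.45, and the count lower was 0 without KO striatum replicate 3 or 4 or KO cortex replicate 4. Of 15 endothelial and pericyte genes 0 were called by limma, edgeR or DESeq2, with differences of -0.11 to 0.31, and 0 had an unadjusted limma p below 0.05. The fit without KO striatum replicate 2 called Slco1a4 among them at 0.43.

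Calls and medians of markers of the ventricle lining and the brain surface changed with single libraries. Ependymal markers were higher for 11 of 12, with Foxj1, a factor of motile cilia, at 267, 333 and 544 in KO striatum against 154, 147, 113 and 138 in KO cortex (log2 difference 1.40, SE 0.33, limma adjusted p = 0.0036). Without KO striatum replicate 4, 6 of the 12 were called. Of 15 choroid plexus markers 3 were called, all higher, against 38.5% of all genes tested called in either direction. They were Prlr (3.36), Clic6 (3.18) and Otx2 (2.96), the last not called without KO striatum replicate 4 (2.06). Ttr, which defines that tissue, stood at 4710, 623 and 77905 against 5665, 4917, 1143 and 3668 and was not called, and the list's median was 1.68, or 0.41 without replicate 4 and 2.71 without replicate 3. Meningeal markers were called lower for 3 of 12 and higher for 0, near the 20% of all genes tested that were called lower. Fmod, 1 of the 3, stood at 64.6, 93.9 and 157 against 359, 505, 488 and 278 (-2.0, SE 0.35). Without KO striatum replicate 4 the count was 6 and the list's median -1.43 in place of -0.69, and the median was -0.32 without replicate 2 and -0.19 without replicate 3.

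Of the markers of thalamus, hypothalamus, septum and pallidum, 20 of 23 were called higher in KO striatum, with a median of 3.21 (2.52 without KO striatum replicate 4, with 18 called). Of the 23, 3 passed the filter through KO striatum alone, and 17 of the other 20 were called higher with a median of 2.82. Those 20 still held Pmch and Avp, which had too few KO cortex values of 10 or higher to pass without KO striatum. Tcf7l2, a thalamic factor, stood at 518, 872 and 4806 against 119, 119, 114 and 108 (log2 difference 3.48, SE 0.55, limma adjusted p = 0.00019). Avp, the vasopressin precursor, stood at 623, 833 and 85.7 against 4.40, 17.8, 2.68 and 11.2 (5.44, SE 0.94), and Oxt, the oxytocin precursor, at 65.7, 1052 and 23.3 against 3.52, 4.68, 0.895 and 0.933 (5.26, SE 1.16). Tcf7l2 was highest in replicate 4 and Avp and Oxt were highest in replicate 3, and Oxt was tested only through KO striatum. Trh, the thyrotropin-releasing hormone precursor, was higher by 4.63 and Nts, the neurotensin precursor, by 4.30, with both highest in replicates 2 or 3. In KO cortex none of these genes was at 0 in all libraries. Hippocampal markers gave 2 calls higher and 1 lower of 10, against 38.5% of all genes tested called in either direction. Fibcd1 stood at 402, 463 and 293 in KO striatum and at 209, 750, 132 and 1219 in KO cortex, where replicates 2 and 4 were highest, and was not called. The part of bordering tissue in the other regional differences was not tested.

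The regional difference in KO libraries was then set beside that in WT libraries, which come from other samples. Of the 16373 genes, 8366 (51.1%) were called between WT striatum and WT cortex. The KO calls were shared with WT in the same direction for 5643 genes, or 89.5% of the KO calls and 67.5% of the WT calls, and 0 genes were called in opposite directions. Across genes, which are not independent replicates, the log2 differences had a Pearson r of 0.93, and the slope of KO on WT through the origin was 0.83. Of 1533 genes called and at least 2-fold apart in both genotypes, 1029 had the smaller difference in KO, with median absolute differences of 1.62 in KO and 1.8 in WT.

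**Figure D5:**
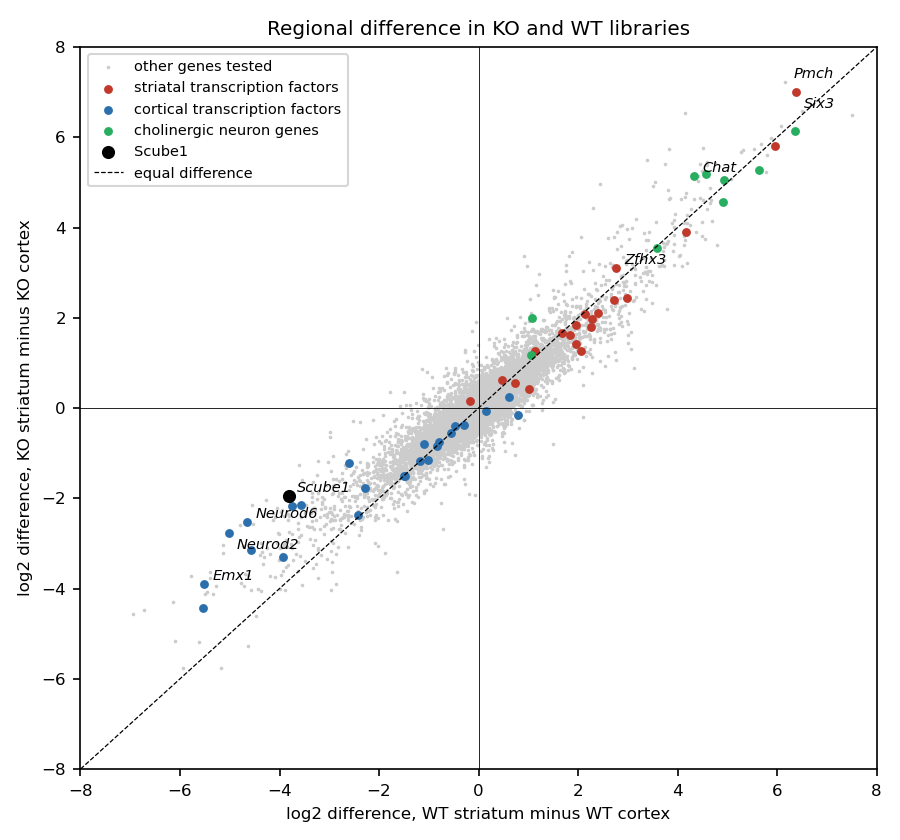
Log2 difference between striatum and cortex in KO libraries against that in WT libraries, with each dot a gene tested and a dashed line where the differences are equal. Of the 24 cortical transcription factors (blue), 19 had the smaller absolute difference in KO, with list medians of -1.37 in KO and -1.48 in WT. Emx1 lies at -3.90 in KO and -5.51 in WT, and limma did not call it for the difference between genotypes. Scube1 (black) is the 1 gene called for it in the reported fit.

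The difference between the KO and WT regional differences was called for 1 gene, or 0.00611% of those tested, and 804 genes (4.91%) passed an unadjusted limma p below 0.05. Scube1, a secreted and cell surface protein, stood at 517, 440 and 725 in KO striatum against 2293, 1965, 2150 and 2133 in KO cortex, a log2 difference of -1.96, while the WT difference was -3.82. The 2 differed by 1.86 (SE 0.19, limma adjusted p = 0.0018), the KO one being smaller in size. DESeq2 called 15 genes, edgeR 1 and the fit with sample weights 4. Without KO striatum replicate 4 limma called 8 genes, without KO striatum replicate 2 or 3 it called 2, and without WT striatum replicate 7 it called 3. Scube1 was called in each of these leave-one-out fits, but not with the replicate number as a block (limma adjusted p = 0.138). The genes with the next smallest p did not pass with limma (adjusted p = 0.95) and had smaller absolute differences in KO: Nwd2 -1.20 against -3.03, Nptxr -1.65 against -2.68, Smoc2 -2.15 against -4.56, Ptchd2 -0.54 against -1.35 and Arhgef25 -1.48 against -1.91. DESeq2 called all 5, with adjusted p values of 0.0017, 0.013, 0.0039, 0.0072 and 0.034 in that order, and sample weights called Nptxr (0.045).

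Of the cortical transcription factors, 19 of 24 had a smaller absolute difference in KO than in WT, and so did 17 of 17 myelin genes, 16 of 20 striatal transcription factors, 30 of 37 dopamine and cAMP genes and 4 of 9 cholinergic genes. A smaller difference in KO was common beyond these lists, in 1029 of the 1533 genes called and at least 2-fold apart in both genotypes. The list counts instead cover all members tested, called or not, and the share over all genes tested is not given here. Neurod2 had a difference of -2.76 in KO and -5.02 in WT, Neurod6 -2.52 and -4.65, and Slc30a3 -3.03 and -5.13. None of these 3 passed the test of the difference with limma (adjusted p = 0.95 each). DESeq2 called Neurod2 and Emx1 for it, and sample weights called Slc30a3. Immediate early genes had a median of -1.29 in KO and -1.05 in WT, with 6 of 20 smaller in KO, and 0 members passed the test of the difference. These counts describe the lists, and the sign shares between genotypes were not tested.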

How the data were processed

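RNA-seq of cortex and striatum was deposited by the authors as 1 table of normalized counts, a signal equal to the reads per gene divided by a size factor for each library. Tools listed in the submitters' processing notes are TopHat2 2.1.1, HTSeq 0.6.0, DESeq2 1.12.4, cutadapt 1.1 and FastQC 0.11.5. The strand setting and the annotation release of the counting are not given in the sources used here. Of 7645 gene IDs without a symbol in the deposited table, 7409 were named from GENCODE M21 (GRCm38). The steps between low values gave whole reads for 100% of values within 0.001.

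Samples were grouped by the genotype and tissue in their labels. The normalized counts plus 1 were log2 transformed and fitted with limma 3.58.1 (R 4.3.3) as 4 group means over 15 libraries, with a trend and 11 residual degrees of freedom. The contrast was KO striatum minus KO cortex, adjusted by the Benjamini-Hochberg method over the 16373 genes with at least 10 in at least 3 of the 7 KO libraries. On simulated counts with 100 genes changed at each size, the test recovered 45% of 1.5-fold and 80% of 2-fold changes, with 5 false calls. The simulation changed far fewer genes than were called here and held no library that stood apart. The comparison and its gene lists were chosen with earlier results of these data known.

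Genes named are Slc1a4, Drd2, Adora2a, Emx1 and Neurod6, and the 15 largest called differences in each direction among annotated genes with a mean of at least 50 and no overlap between groups. To these were added the 6 most abundant called genes at least 2-fold apart in each direction, and the 4 most abundant whose 95% interval lay within 0.2 of zero. The 6 genes with the smallest p for the KO minus WT difference and the genes nearest the filter threshold were also named. Members of lists or roles of up to 12 genes could be named, and from larger ones up to 8 called and 3 not called. Genes overlapping these, or holding a motif, are named without levels. Some genes within this rule are not reported here.

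The alternatives were pseudocounts of 0.5 and 5, no filter, a minimum of 50, TMM scaling, the 7 KO libraries alone, sample weights, the replicate number as a block, leaving out each library, and voom, edgeR 4.0.16 and DESeq2 1.42.0 on the recovered reads.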

Additional observations from a re-analysis of the deposited data

Results flagged for a closer look

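Among 261 named genes, 26 had 1 KO cortex library far from the other 3, by the share of the group's range that its gap took, and chance flags about 1 in 20 groups. The 3 KO striatum libraries are too few for this check. Replicate 2 stood apart for 17 genes, replicate 1 for 3, replicate 3 for 5 and replicate 4 for 1.

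In replicate 2 the normalized counts were the highest for Ache (1711), Cacna2d2 (1300), Cdh13 (2001), Dlk1 (31.8), Eya1 (370), Gad2 (7241), Gfap (13720), Grin3a (1341), Ret (241) and Slc1a4 (308). They were the lowest there for Chrm1 (4652), Egr1 (5317), Grin2d (340), Ngfr (26.2), Nr4a1 (1443), Pcp4 (663) and Srr (2597). Egr1 and Nr4a1 are immediate early genes, Gad2 makes GABA and Gfap marks astrocytes. Replicate 1 was the highest for Drd3 (0.880) and the lowest for Hsp90ab1 (34561) and Meis1 (62.5). Replicate 3 was the highest for Glp2r (207), Got1 (8019) and Mybpc1 (178) and the lowest for Gatm (2770) and Slc6a11 (3226). Replicate 4 was the lowest for Slc7a8 (1890).

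The regional difference of Scube1, a secreted and cell surface protein, passed the limma test between genotypes in the reported fit. It did not pass with the replicate number as a block (limma adjusted p = 0.138). In the reported fit the regional difference was -1.96 in KO and -3.82 in WT on the log2 scale, 1.86 apart.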

How the results depend on the processing

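Under 26 alternatives, between 5260 and 6674 genes were called between KO striatum and KO cortex, and no gene called in the reported fit was called in the opposite direction. On recovered whole reads (100% of values), edgeR called 6363 and DESeq2 6674. Without single libraries, 5315 to 6618 genes were called, and 1625 to 1888 were called and at least 2-fold apart. That last count was 1777 as reported and 1183 with a minimum value of 50, where fewer genes were tested. Of 213 called genes named with values, 200 kept the call under every alternative and none changed sign. The KO minus WT difference was called for 1 gene as reported, 15 with DESeq2, 4 with sample weights and 1 to 8 without single libraries; the cause was not tested. The 8 came without KO striatum replicate 4, and 2, 2 and 3 without KO striatum replicate 2, KO striatum replicate 3 and WT striatum replicate 7. With the replicate number as a block, limma called 5260 genes between regions and 0 for the KO minus WT difference (842 at an unadjusted p under 0.05), and Scube1 lost its call (1.89, limma adjusted p = 0.138, against 1.3e-16 (DESeq2) to 0.0094 under the other alternatives). Without a block edgeR called 1 gene. Deviations of same-numbered libraries correlated at 0.147, 0.138 and 0.0913 in KO and at -0.0117 to 0.11 in WT. Such low correlations cannot decide whether the numbers pair samples, and the reported fit used no pairing. Each KO striatum library and 3 of 4 WT ones correlated best with the cortex library of their own number, a hint from the data and not the design. Low counts limit the size of differences in genes with few reads.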
